A study of Mus musculus with 14 samples.

Results

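The genes of plasminogen activation and of their serpin inhibitors were followed in cultured mouse hepatic stellate cells (HSCs), the vitamin A-storing cells of the liver that turn into matrix-producing myofibroblasts on injury and in culture. The set was a list of 8 genes, and the probe set whose only gene symbol was the listed one stood for each gene. The row was to be chosen by the highest mean over the 14 arrays where a gene had several, which decided nothing, since each gene had 1. Of the 8, 7 of the 19938 gene symbols on the array were found, namely Plat, Plau, Plaur, Serpinb2, Serpinb6b, Serpini1 and Serpinf1. Serpine2, an inhibitor of thrombin and plasminogen activators, is not analysed here. The list was drawn up with results of these arrays known, so the p-values below are not independent evidence that these genes changed.

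Primary HSCs of mice labelled BalbC, which the study's methods name as Balb/cByJ, with no transgene or mutation named, were seeded in serum-containing DMEM, unattached cells were washed away and the clock started there. At that point 2.5 mM valproic acid (VPA), an inhibitor of histone deacetylases, was added to the treated cultures. The groups were VPA for 4 h (VPA4h, n = 3) with its control (Ctrl4h, n = 3), VPA for 64 h (VPA64h, n = 3) with its control (Ctrl64h, n = 3), and control cells at 16 h (Ctrl16h, n = 2), which had no VPA counterpart. RNA was measured on Affymetrix whole-transcript gene arrays, and all levels are log2 values after robust multi-array averaging (RMA), so a difference of 1 is a 2-fold change set against the rest of its array. Age was not given, and the study describes its arrays as coming from separate cell isolations.

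Plasminogen is a circulating zymogen that is cut to plasmin, a serine protease that dissolves fibrin and helps to break down pericellular matrix. Tissue-type activator (Plat) works mainly on fibrin, and urokinase (Plau) works on the cell surface, held there by its receptor (Plaur). Serpins restrain these proteases by forming covalent complexes with them, and in the liver the balance bears on matrix turnover during fibrosis.

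A change was called where limma's Benjamini-Hochberg adjusted p over the 23410 probe sets with a gene symbol was under 0.05 and the fold at least 2. The words rose and fell are kept for called changes. On the arrays the median of these probe sets lay between 6.34 and 6.41, no 2 arrays held the same values, and the number of arrays limits the precision. The 12 stellate cell markers averaged between 10.31 and 11.02 on all 14 arrays, against 5.64 to 6.75 for 10 hepatocyte markers, 6.16 to 7.07 for 10 sinusoidal endothelial markers, 5.68 to 6.37 for 10 macrophage markers, 4.60 to 5.12 for 7 lymphocyte markers and 6.24 to 6.78 for 9 mesothelial, biliary and portal fibroblast markers. Single markers stood well above their list mean, such as endothelial Plvap, with group means from 9.97 in VPA64h to 12.01 in VPA4h. Hepatocyte Trf ran from 7.73 in VPA64h to 9.38 in Ctrl4h, and macrophage Lyz2 from 7.24 in Ctrl16h to 9.03 in Ctrl64h. Others lay below it, such as hepatocyte Cyp3a11 from 3.14 in VPA4h to 3.30 in Ctrl64h. In such bulk RNA, fewer cells of a type and less RNA per cell cannot be told apart.

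Promoter windows of RefSeq (GRCm38.p6) were matched for 5 of the 7 measured genes, and Plat and Plau are named only. The 250 bases before the start are shown for the genes whose levels moved most and in different ways, with capitals marking motif matches on either strand. The TATA box was searched as TATAAA and the CCAAT box by the letters of its name. The GC box was searched as GGGCGG and the AP-1 site as TGACTCA, while the cAMP response element (TGACGTCA) and the decamer NF-κB site had no match in the windows printed. The windows lay at chr3:75557243-75557492 for Serpini1, chr1:107511173-107511422 for the first of the annotated starts of Serpinb2, chr13:32965011-32965260 for Serpinb6b and chr7:24462233-24462482 for Plaur, all on the + strand.
Serpini1: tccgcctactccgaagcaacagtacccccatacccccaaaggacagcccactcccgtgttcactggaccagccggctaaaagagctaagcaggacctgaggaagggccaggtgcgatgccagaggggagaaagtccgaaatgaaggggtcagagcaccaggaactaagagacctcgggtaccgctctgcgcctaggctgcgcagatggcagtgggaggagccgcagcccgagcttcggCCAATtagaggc
Serpinb2: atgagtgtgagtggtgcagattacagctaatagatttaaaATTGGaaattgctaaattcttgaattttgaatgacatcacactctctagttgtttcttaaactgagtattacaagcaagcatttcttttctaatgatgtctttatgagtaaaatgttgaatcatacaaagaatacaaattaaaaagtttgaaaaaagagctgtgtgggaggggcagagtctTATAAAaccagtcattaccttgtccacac
Serpinb6b: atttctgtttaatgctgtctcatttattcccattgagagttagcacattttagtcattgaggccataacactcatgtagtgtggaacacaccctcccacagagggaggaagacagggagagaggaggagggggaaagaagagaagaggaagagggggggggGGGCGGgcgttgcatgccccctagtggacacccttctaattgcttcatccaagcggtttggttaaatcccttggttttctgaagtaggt
Plaur: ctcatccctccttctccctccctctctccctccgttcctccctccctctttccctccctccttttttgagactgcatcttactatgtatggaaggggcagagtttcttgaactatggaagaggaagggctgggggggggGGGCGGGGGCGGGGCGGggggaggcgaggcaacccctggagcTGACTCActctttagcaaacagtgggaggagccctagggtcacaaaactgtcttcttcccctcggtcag

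The window of Serpini1 was rich in G and C, at 61.2% with 13 CpG dinucleotides, against medians of 52.4% and 6 over all promoter windows, and held a CCAAT match 12 to 8 bases before the start. That of Serpinb2 was AT-rich, with 32.4% G and C and no CpG, and held TATAAA 29 to 24 bases before the start. Plaur carried 3 GC boxes, the last 2 overlapping by 1 base, and TGACTCA 69 to 63 bases before the start, and Serpinb6b carried 1 GC box 89 to 84 bases before it. Among 32851 windows of the same length the TATA box was found in 12.37%, the CCAAT box in 33.85%, the GC box in 32.74%, the AP-1 site in 4.46%, the cAMP response element in 1.55% and the NF-κB site in 0.14%. The matches describe letters only, and binding was not measured.

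**Figure D1:**
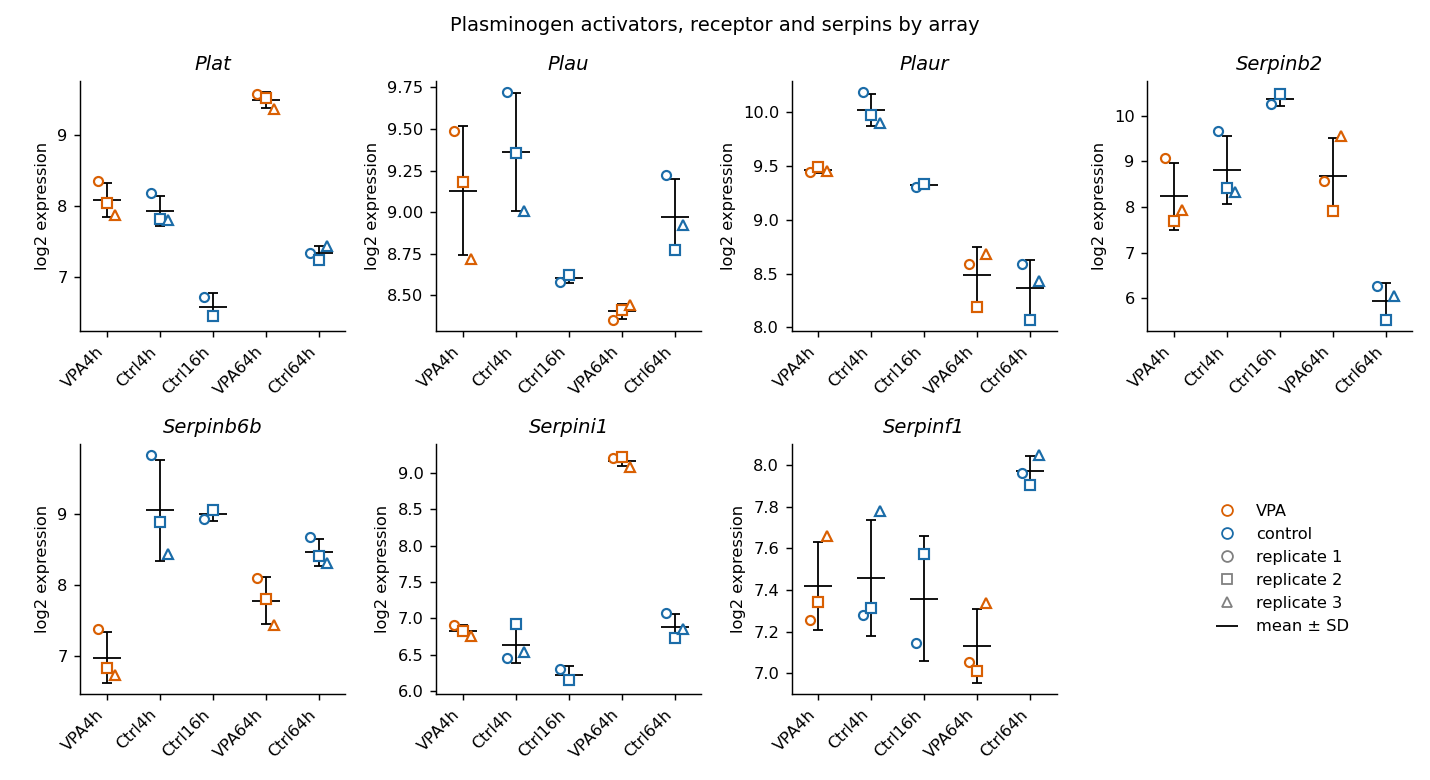
Log2 expression of the 7 measured genes on each of the 14 arrays, by group (orange, VPA; blue, control), with the mean and SD of the group as lines. Plat and Serpini1 stood highest in the 3 VPA64h arrays, Serpinb2 stood lowest in the 3 Ctrl64h arrays, and Serpinb6b stood lowest in the 3 VPA4h arrays.

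After 64 h, VPA-treated cells held more mRNA of the tissue-type activator Plat and of 2 serpins that inhibit plasminogen activators, Serpini1 and Serpinb2, than control cells of the same age. Of the 7 genes 3 rose and none fell, while 2.14% of all tested probe sets were called in this comparison, 1% higher and 1.14% lower. Urokinase, its receptor, Serpinb6b and Serpinf1 were not called. The median change of the 7 genes was 0.12, against 0.00 over all tested probe sets.

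Plat, which encodes tissue-type plasminogen activator, had levels of 9.59, 9.52 and 9.37 in VPA64h, against 7.34, 7.25 and 7.44 in Ctrl64h. Every treated array lay above every control array. The rise was 2.15 (SE 0.13, limma adjusted p = 1.93e-08), or 4.44-fold. Plat in VPA64h was also above the early control (8.18, 7.82 and 7.81 in Ctrl4h), by 1.56 (SE 0.13, adjusted p = 5.42e-08). The level of VPA64h stood highest in the order VPA64h, VPA4h, Ctrl4h, Ctrl64h, Ctrl16h. Only VPA4h and Ctrl4h overlapped among the neighbours in that order.

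Serpini1 encodes neuroserpin, an inhibitor of tissue-type activator known mainly from neurons. Its levels were 9.21, 9.22 and 9.08 in VPA64h, against 7.08, 6.73 and 6.85 in Ctrl64h. It rose by 2.28 (SE 0.12, adjusted p = 7.71e-09), or 4.86-fold, with no overlap of the groups. Against Ctrl4h (6.46, 6.92 and 6.54) the level in VPA64h was higher by 2.53 (SE 0.12, adjusted p = 9.16e-11). The other groups stayed between 6.15 and 7.08, so that the order was VPA64h, then Ctrl64h, VPA4h and Ctrl4h with overlapping ranges, then Ctrl16h.

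Across the 14 arrays Plat and Serpini1, a protease and its inhibitor, had a Pearson r of 0.888, a description over arrays that share groups and replicate numbers. Both were highest in VPA64h and lowest in Ctrl16h. They parted in the early cultures, where Plat averaged 8.09 ± 0.24 in VPA4h and 7.93 ± 0.21 in Ctrl4h (SD, n = 3 each), above Ctrl64h, while the ranges of Serpini1 in VPA4h and Ctrl4h overlapped with that in Ctrl64h. Among 3657 genes with a range of at least 1 over the group means, the patterns most like Plat were those of Arhgap20 (r = 0.949), Tmx4 (0.948) and Itm2a (0.940), and those most like Serpini1 were Mpp7 (0.983), Aplp1 (0.975) and Tmem255a (0.973).

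Serpinb2 encodes plasminogen activator inhibitor type 2, an inhibitor of urokinase and tissue-type activator that is largely kept inside cells. Its levels were 8.58, 7.91 and 9.55 in VPA64h, against 6.27, 5.52 and 6.04 in Ctrl64h. The treated arrays were widely spread but all lay above the controls. The rise was 2.74 (SE 0.41, adjusted p = 0.000165), or 6.68-fold. The VPA64h range overlapped with those of VPA4h and Ctrl4h.

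The remaining genes moved less at 64 h. Serpinf1, which encodes pigment epithelium-derived factor, a secreted serpin without protease-inhibiting activity that restrains vessel growth, ranged from 7.01 to 7.34 in VPA64h, against 7.91 to 8.05 in Ctrl64h. The groups did not overlap, and the difference of -0.84 (SE 0.15, adjusted p = 0.000609) stayed under 2-fold. Plau, urokinase, ranged from 8.35 to 8.45 in VPA64h, against 8.77 to 9.22 in Ctrl64h, a difference of -0.57 (SE 0.18, adjusted p = 0.0318) below the fold limit. Serpinb6b differed by -0.68 (SE 0.27, adjusted p = 0.0809). Plaur ranged from 8.19 to 8.68 in VPA64h and from 8.07 to 8.59 in Ctrl64h, with overlap.

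The 2 activators thus differed in their response, with Plat higher and Plau not called at 64 h, a contrast between genes that was not tested. Marker lists also stood apart in this comparison. The stellate cell list was at 10.31 to 10.52 in VPA64h, against 10.71 to 10.86 in Ctrl64h, with 2 of 12 called, Acta2 and Col3a1, both lower. The endothelial list was at 6.16 to 6.18 in VPA64h, against 6.35 to 6.65 in Ctrl64h, with none of 10 called by limma. Of these 10, 4 were lower at an adjusted p under 0.05 but under 2-fold, and 5 had an unadjusted p under 0.05. Of the 9 mesothelial, biliary and portal fibroblast markers 1 was called, Thy1, which was higher (list median 0.10). The part of these lists in the results was not tested.

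**Figure D2:**
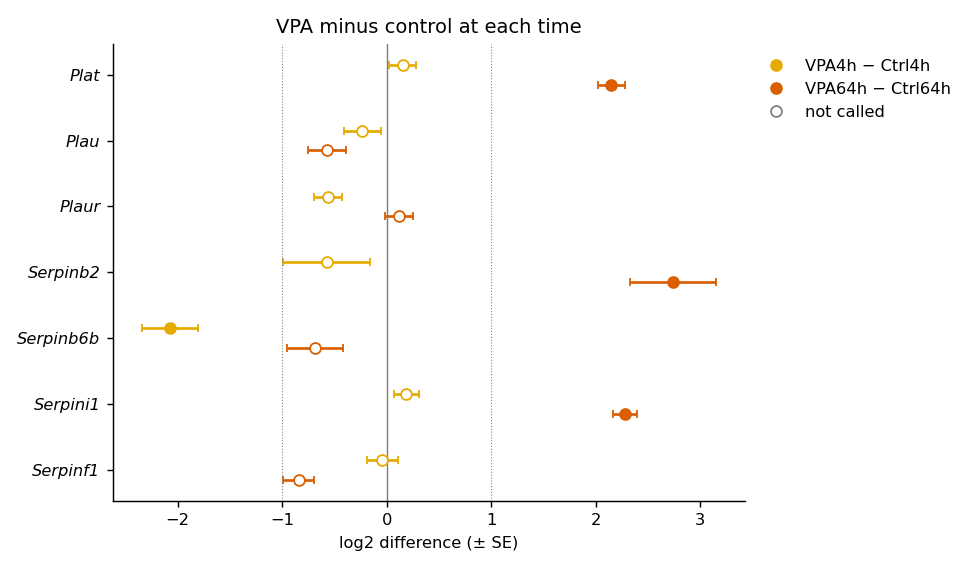
Difference between VPA and control (log2, with SE) for each gene at 4 h (yellow, VPA4h minus Ctrl4h) and 64 h (orange, VPA64h minus Ctrl64h); filled points were called and dotted lines mark 2-fold. Serpinb6b was called only at 4 h, at -2.07, and Plat, Serpinb2 and Serpini1 only at 64 h, at 2.15, 2.74 and 2.28.

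After 4 h of VPA a different member was called. Serpinb6b, a mouse clade B serpin of the intracellular kind, fell and no other of the 7 genes was called, while 1.42% of all tested probe sets were called, 0.867% higher and 0.555% lower. The median change of the 7 was -0.23, against -0.03 over all tested probe sets. Its levels were 7.38, 6.82 and 6.72 in VPA4h, against 9.83, 8.89 and 8.44 in Ctrl4h. All treated arrays lay below all controls, by 2.07 on average (a change of -2.07, SE 0.27, adjusted p = 3.01e-05), or 4.21-fold.

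Plaur, the urokinase receptor, had levels of 9.44, 9.48 and 9.45 in VPA4h, against 10.18, 9.97 and 9.90 in Ctrl4h. Its groups were apart, but the difference of -0.56 (SE 0.14, adjusted p = 0.00601) was under 2-fold. Plau differed by -0.23 (SE 0.18, adjusted p = 0.475) and Serpinb2 by -0.57 (SE 0.41, adjusted p = 0.424). Levels of Plat, Serpini1 and Serpinf1 in VPA4h overlapped with those in Ctrl4h.

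The change of the VPA effect between the times was tested directly as the difference of the effects, 64 h minus 4 h. In this test 4 of 7 genes were called, all higher, against 2.59% of all tested probe sets, 0.893% higher and 1.7% lower. The difference was 2.00 for Plat (SE 0.18, adjusted p = 4.30e-06), 2.09 for Serpini1 (SE 0.17, adjusted p = 1.93e-06) and 3.31 for Serpinb2 (SE 0.59, adjusted p = 0.000992). For these 3 genes the VPA effect was thus larger at 64 h. For Serpinb6b it was 1.39 (SE 0.38, adjusted p = 0.0192), a smaller deficit after 64 h than after 4 h, a call lost without VPA4h replicate 2 (1.32, adjusted p = 0.0514) or VPA64h replicate 1 (1.23, adjusted p = 0.0524). The differences were 0.68 for Plaur (adjusted p = 0.0229) and -0.80 for Serpinf1 (adjusted p = 0.0153), both under the fold limit, and -0.34 for Plau (adjusted p = 0.455). The median of the 7 was 1.39, against 0.03 over all tested probe sets.

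Between the VPA-treated times, Plat rose by 1.40 (SE 0.13, adjusted p = 2.54e-07) and Serpini1 by 2.34 (SE 0.12, adjusted p = 3.94e-10) in VPA64h over VPA4h, 2 of 7 genes against 7.55% of all tested probe sets called, 5.26% higher and 2.29% lower (median 0.45, against -0.08). Serpinb6b was higher by 0.80 (SE 0.27, adjusted p = 0.0209), and Plaur lower by 0.97 (a change of -0.97, SE 0.14, adjusted p = 2.04e-05), neither called. Serpinb6b was called without VPA4h replicate 1 (1.01), and Plaur without VPA64h replicate 1 (-1.02) or 3 (-1.07). With all arrays Plaur was also called after centring on housekeeping genes (-1.45) or Gapdh (-1.32) or a renewed quantile normalisation (-1.07). Against Ctrl4h, 4 genes were called in VPA64h, with 9.47% of all tested probe sets called, 6.54% higher and 2.93% lower (median of the 7 -0.33, against -0.11). Besides the rises of Plat and Serpini1, Plaur changed by -1.53 (SE 0.14, adjusted p = 1.09e-07) and Serpinb6b by -1.27 (SE 0.27, adjusted p = 0.000863). That last call rested on 1 array, with a change of -0.88 and no call without Ctrl4h replicate 1. Plau, at -0.96 (SE 0.18, adjusted p = 0.000345), was not called, but was without Ctrl4h replicate 3 (-1.13) and, with all arrays, after centring on housekeeping genes (-1.48) or Gapdh (-1.64) or a renewed quantile normalisation (-1.06).

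In control culture the genes moved at different times. At 16 h Plat fell and Serpinb2 rose relative to 4 h, by 64 h Serpinb2 and Plaur were below their 4 h levels, and no member rose between 4 h and 64 h. In Ctrl16h against Ctrl4h 2 of 7 were called, against 1.91% of all tested probe sets, 0.705% higher and 1.21% lower (median -0.41, against -0.01). In Ctrl64h against Ctrl16h 1 of 7 was called, against 6.6%, 4.52% higher and 2.08% lower (median 0.37, against -0.07), and in Ctrl64h against Ctrl4h 2 of 7, against 10.4%, 6.68% higher and 3.7% lower (median -0.59, against -0.09). These comparisons share arrays with each other and with those of VPA. Marker lists moved with culture time as well. At 4, 16 and 64 h the stellate cell list was at 10.89 to 10.99, 10.32 to 10.48 and 10.71 to 10.86, the endothelial list at 6.77 to 7.07, 6.39 to 6.47 and 6.35 to 6.65, and the macrophage list at 5.90 to 6.36, 5.69 to 5.74 and 5.99 to 6.37. Of the 10 macrophage markers 2 were called higher in Ctrl64h against Ctrl16h, and the part of these lists in the changes was not tested.

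Serpinb2 had levels of 9.67, 8.41 and 8.34 in Ctrl4h, 10.26 and 10.47 in Ctrl16h, and 6.27, 5.52 and 6.04 in Ctrl64h. The 3 times did not overlap, and the middle time was highest. It rose by 1.56 in Ctrl16h over Ctrl4h (SE 0.46, adjusted p = 0.0250), a call lost on leaving out Ctrl4h replicate 2 (1.36, adjusted p = 0.0880) or 3 (1.32, adjusted p = 0.0959) or either 16 h array (1.67, adjusted p = 0.0956, without replicate 1 and 1.45, adjusted p = 0.136, without replicate 2). In Ctrl64h it fell by 4.42 relative to Ctrl16h (a change of -4.42, SE 0.46, adjusted p = 1.91e-06), or 21.4-fold. Against Ctrl4h it was lower by 2.86 (a change of -2.86, SE 0.41, adjusted p = 2.41e-05), or 7.28-fold. The order of its levels was Ctrl16h, then Ctrl4h, VPA64h and VPA4h with overlapping ranges, then Ctrl64h. Every other member also had an order of its own.

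Plat had levels of 8.18, 7.82 and 7.81 in Ctrl4h, 6.72 and 6.45 in Ctrl16h, and 7.34, 7.25 and 7.44 in Ctrl64h. It was lowest at 16 h, where Serpinb2 was highest. Ctrl16h was below Ctrl4h (a change of -1.35, SE 0.14, adjusted p = 7.74e-06), or 2.54-fold, and Ctrl64h was 0.75 above Ctrl16h (SE 0.14, adjusted p = 0.000574), under the fold limit. Serpini1 was also lowest at 16 h, with differences of -0.41 (adjusted p = 0.0365) and 0.66 (adjusted p = 0.000808) over the same intervals, neither called, and its Ctrl64h range overlapped with that of Ctrl4h.

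Plaur had levels of 10.18, 9.97 and 9.90 in Ctrl4h, 9.30 and 9.33 in Ctrl16h, and 8.59, 8.07 and 8.43 in Ctrl64h. Each later time lay below the one before without overlap. The change was -1.65 in Ctrl64h against Ctrl4h (SE 0.14, adjusted p = 4.55e-08), or 3.14-fold. Each step alone stayed under 2-fold, at -0.70 in Ctrl16h against Ctrl4h (adjusted p = 0.00325) and -0.95 in Ctrl64h against Ctrl16h (adjusted p = 0.000105). Without Ctrl64h replicate 1 the second step was -1.07 and called.

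The ligand of this receptor, Plau, ranged from 9.01 to 9.72 in Ctrl4h, from 8.58 to 8.63 in Ctrl16h and from 8.77 to 9.22 in Ctrl64h. Its changes were -0.76 in Ctrl16h against Ctrl4h (SE 0.20, adjusted p = 0.0137) and 0.37 in Ctrl64h against Ctrl16h (SE 0.20, adjusted p = 0.155), so that receptor and ligand did not run in parallel after 16 h, though this difference was not tested. Serpinb6b ranged from 8.44 to 9.83 in Ctrl4h and from 8.30 to 8.68 in Ctrl64h, with overlap. Serpinf1 was higher in Ctrl64h, at 7.97 ± 0.07, than in Ctrl4h, at 7.46 ± 0.28 (SD, n = 3 each), by 0.51 (SE 0.15, adjusted p = 0.00793), under 2-fold, a sign that centring on Gapdh turned (-0.043).

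**Figure D3:**
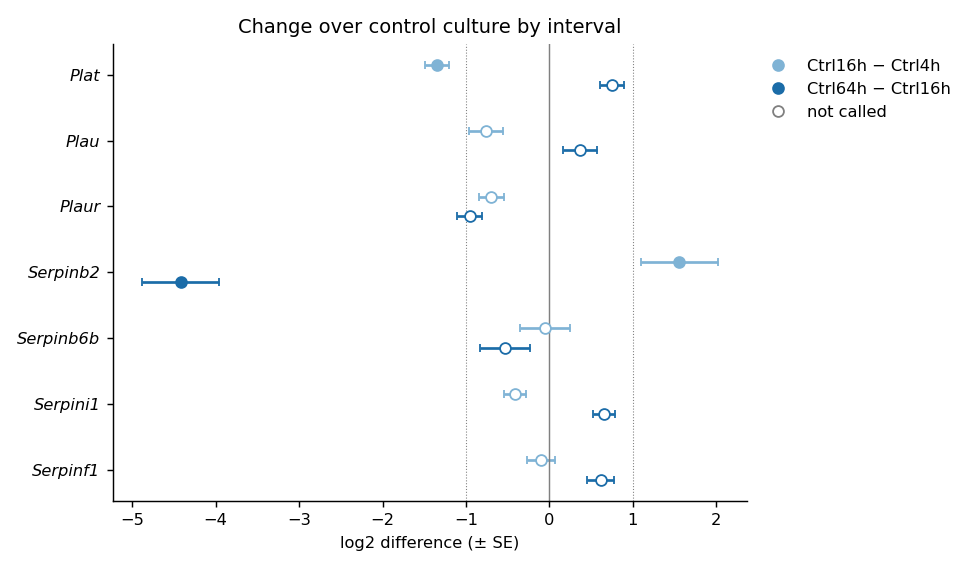
Difference between consecutive times of control culture (log2, with SE) for each gene (light blue, Ctrl16h minus Ctrl4h; dark blue, Ctrl64h minus Ctrl16h); filled points were called and dotted lines mark 2-fold. Serpinb2 rose by 1.56 in the first interval and changed by -4.42 in the second, while Plat was called only in the first, at -1.35.

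The patterns most like Plaur over the 14 arrays were those of Hipk2 (r = 0.986), Noc3l (0.985) and Ddx31 (0.978), and those most like Plau were Hbegf (0.912), Clec4d (0.909) and Hcls1 (0.902), of which Clec4d encodes a myeloid lectin and Hcls1 a signalling protein of blood cells. For Serpinb2 they were Elmo1 (0.928), Rptor (0.898) and Fyn (0.892), and for Serpinf1 Pcsk6 (0.897), Tmem215 (0.841) and Plk1 (0.838). Plau and Plaur had an r of 0.616 with each other.

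Serpinb6b lies in a cluster of clade B serpins, with 16 serpin genes within 1 Mb in the RefSeq annotation, of which 13 were measured. The gene whose pattern was most like it among all 3657 candidates was a member of this cluster, Serpinb9 (r = 0.967), the inhibitor of granzyme B, followed by Czib (0.939) and Gtf3c5 (0.930). Serpinb9 averaged 6.71 in VPA4h and 7.82 in Ctrl4h, and it fell with VPA at 4 h (a change of -1.10, SE 0.19, adjusted p = 0.000343). At 64 h its means were 7.17 in VPA64h and 7.51 in Ctrl64h.

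Other neighbours differed in pattern. Serpinb9b, a mouse paralogue of Serpinb9, had an r of 0.532 with Serpinb6b and means of 8.18 in VPA64h and 10.16 in Ctrl64h, a fall with VPA at 64 h (a change of -1.98, SE 0.24, adjusted p = 1.87e-05). In control culture Serpinb9b rose by 2.69 in Ctrl64h over Ctrl4h (adjusted p = 1.10e-07). Serpinb6a, which shares its family number with Serpinb6b, had an r of 0.150 and means of 9.63 in VPA4h and 9.76 in Ctrl4h. The proteins of this cluster are alike, and whether probes are shared among these genes was not tested.

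**Figure D4:**
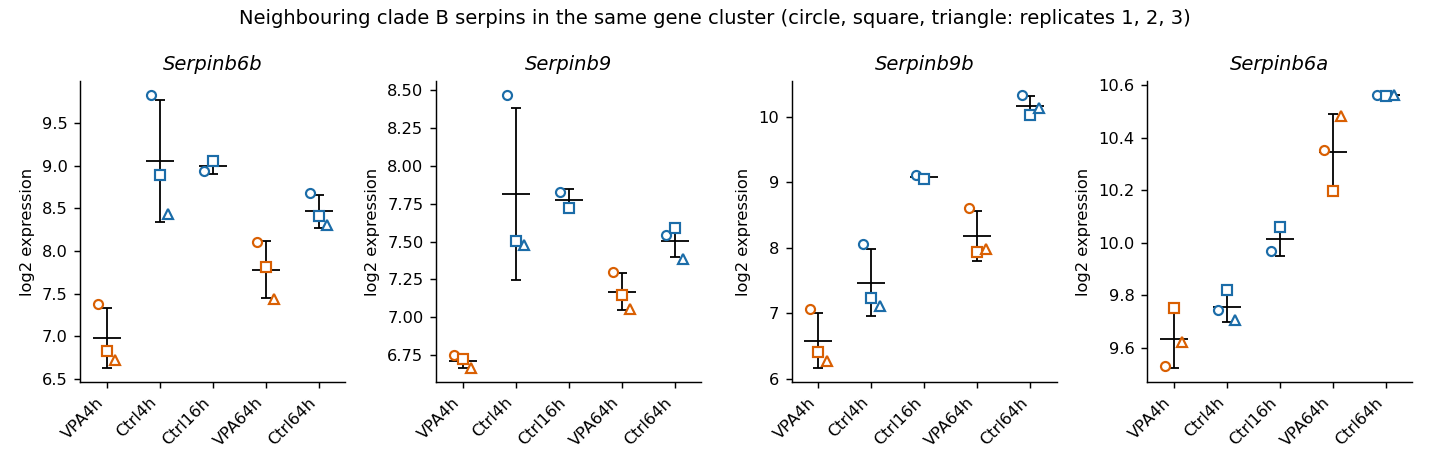
Log2 expression of Serpinb6b and 3 clade B serpins of the same gene cluster on each array, with the mean and SD of the group as lines (orange, VPA; blue, control). Serpinb6b and Serpinb9 were lowest in VPA4h, Serpinb9b was highest in Ctrl64h, and Serpinb6a ranged less than the others.

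Of 29 further genes of the plasminogen system, covering the zymogen, plasmin inhibitors, binding sites, clearance receptors and growth factors or proteases that plasmin or the activators cleave, 25 were measured. With VPA at 64 h 1 of the 25 was called, against 2.14% of all tested probe sets, 1% higher and 1.14% lower. This was Igf2r, the mannose 6-phosphate receptor that also binds plasminogen and the urokinase receptor. It rose by 1.59 over Ctrl64h (SE 0.15, adjusted p = 1.71e-06). Limma called none with VPA at 4 h or in the difference of the VPA effects. Before adjustment, 6 genes had p under 0.05 at 4 h and 5 in the difference. After adjustment, 3 higher and 2 lower genes kept p under 0.05 at 4 h, all under 2-fold. Igf2r was among those higher, by 0.92 (SE 0.15, adjusted p = 0.000247). In the difference 3 higher and 1 lower kept it, again under 2-fold. The median change of the 25 with VPA at 4 h was -0.03, the same as that of all tested probe sets. Plasminogen itself (Plg) averaged 5.38 in VPA64h and 5.40 in Ctrl64h.

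In control culture 2 of the 25 rose and 1 fell in Ctrl64h against Ctrl4h, where 6.68% of all tested probe sets were called higher and 3.7% lower. Plgrkt, a membrane receptor for plasminogen, rose by 1.78 (adjusted p = 9.84e-10). Hgf, hepatocyte growth factor, whose inactive precursor is cleaved by serine proteases, changed by -1.32 (adjusted p = 7.36e-07), and the same size of change was already present in Ctrl16h against Ctrl4h (-1.32, SE 0.15, adjusted p = 1.75e-05). The other gene that rose was Pdgfd, by 3.72 (adjusted p = 8.53e-12). In Ctrl64h against Ctrl16h 3 of the 25 rose and 1 fell, with 6.6% of all tested probe sets called. Pdgfd rose by 4.09 (adjusted p = 6.81e-11) and Plgrkt by 1.28 (adjusted p = 3.79e-07), while Lrp8 changed by -1.13 (adjusted p = 1.09e-05). Mmp3, stromelysin 1, a metalloproteinase that plasmin activates, rose by 1.62 (adjusted p = 6.89e-06). It averaged 9.33 in Ctrl4h, 8.45 in Ctrl16h and 10.07 in Ctrl64h, and its difference of 0.74 in Ctrl64h against Ctrl4h was not called. In VPA64h against VPA4h 3 rose and 1 fell, with 7.55% of all tested probe sets called, and against Ctrl4h 4 rose and 1 fell, with 9.47% called.

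Of 44 other serpins, 2 of which are also in the plasminogen list, none rose and 2 fell with VPA at 64 h, with 1.14% of all tested probe sets called lower. These 2 were Serpinb9b and Serpina3n, an inhibitor of leukocyte proteases, the change of Serpina3n being -1.54 (SE 0.18, adjusted p = 1.20e-05). With VPA at 4 h Serpinb9 alone fell and none rose, with 0.555% of all tested probe sets called lower and 0.867% higher. In Ctrl16h against Ctrl4h Serpinb9b rose by 1.62 (adjusted p = 0.000375) and Serping1, the C1 inhibitor of complement, changed by -1.27 (adjusted p = 1.07e-05).

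Replicates within a group were not equally spread across the members. In VPA4h and Ctrl4h replicate 1 was highest for Plat, Plau, Serpinb2 and Serpinb6b. The mean of the 10 macrophage markers was also highest in replicate 1 of both, at 6.36, 6.01 and 5.68 in VPA4h and 6.36, 6.09 and 5.90 in Ctrl4h. So was that of the 10 endothelial markers, at 6.96, 6.74 and 6.61 in VPA4h and 7.07, 6.77 and 6.80 in Ctrl4h. None of the other marker lists was highest in replicate 1 of both groups, and the part of any list in these levels was not tested. Limma called none of the 10 macrophage markers with VPA at 4 h (median -0.10, none with an unadjusted p under 0.05) or at 64 h (median -0.25). With VPA at 64 h 3 of them had an unadjusted p under 0.05, and 2 were lower at an adjusted p under 0.05 but under 2-fold. At 64 h the macrophage mean was again highest in replicate 1, at 6.18, 5.78 and 5.80 in VPA64h and 6.37, 6.02 and 5.99 in Ctrl64h. The endothelial mean was highest in replicate 1 of Ctrl64h (6.65, 6.47 and 6.35) but not of VPA64h (6.16, 6.18 and 6.18). Replicate 1 was then highest for Serpinb6b in both groups, for Plat in VPA64h and for Plau and Serpinb2 in Ctrl64h. Replicate 3 was highest for Plau and Serpinb2 in VPA64h and for Plat in Ctrl64h. In Ctrl16h the macrophage mean was 5.74 in replicate 1 and 5.69 in replicate 2. Plat was higher there in replicate 1, and Plau, Serpinb2 and Serpinb6b were higher in replicate 2.

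**Figure D5:**
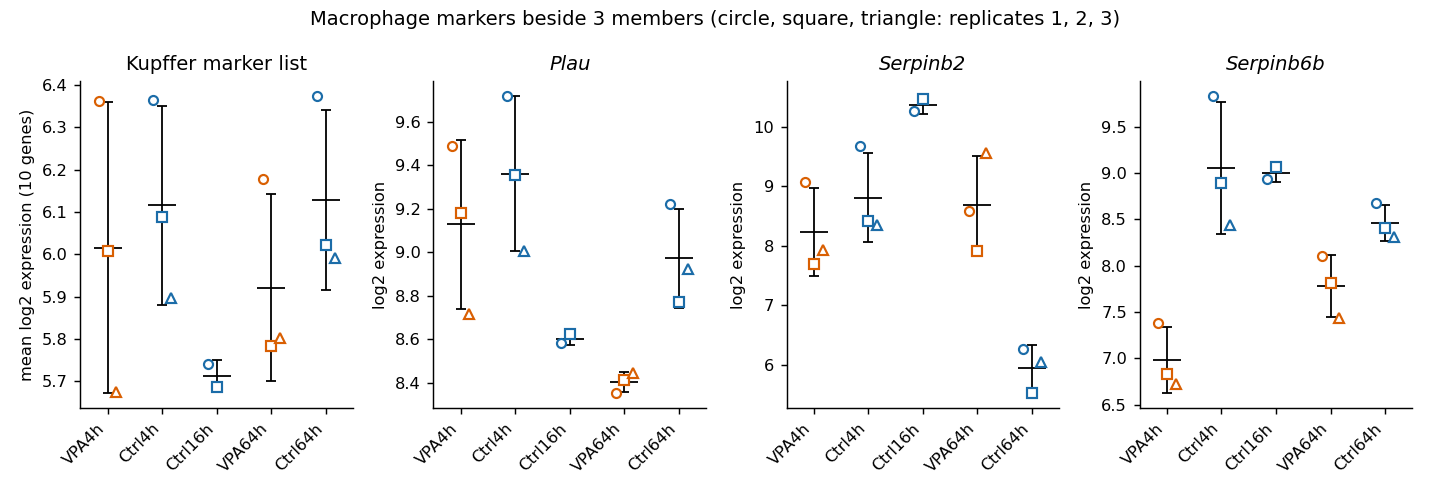
Mean log2 level of 10 macrophage (Kupffer cell) markers on each array, beside Plau, Serpinb2 and Serpinb6b, with the mean and SD of the group as lines (orange, VPA; blue, control; circles, replicate 1). Replicate 1 was highest in VPA4h and Ctrl4h in all 4 panels, while in VPA64h the highest Serpinb2 array was replicate 3, at 9.55.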

How the data were processed

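The authors deposited log2 expression values made by RMA, which corrects the background, quantile-normalises the arrays and summarises the probes of each set. The study's methods name GeneSpring GX 11 for this step, while the submitters' processing notes name Affymetrix Expression Console, and the genome build behind the probe annotation is not given in the sources used here. Of 35557 probe sets, the test took the 23410 that carried a gene symbol (21789 a single symbol). The values were used as deposited.

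The 5 group means were fitted together with limma 3.58.1 (lmFit and eBayes, R 4.3.3, 9 residual and 6.52 prior degrees of freedom), with 7 comparisons of groups and the difference of the VPA effects, two-sided, with the Benjamini-Hochberg adjustment made within each over all 23410, and checked on simulated data. Calls needed an adjusted p under 0.05 and 2-fold, the limits of the study's methods. All measured members are named, with called genes of the plasminogen and other serpin lists and, for each member, the 3 genes of highest Pearson r over 14 arrays. The members and lists were chosen with earlier results of these data known. The main fit held no term for the replicate number, so its SEs and p-values treat the arrays as unpaired. Between VPA4h and Ctrl4h, VPA64h and Ctrl64h, and VPA64h and Ctrl4h, arrays of the same number had correlated deviations from their group means (0.107 to 0.279). Over all 26 pairs of the same number in different groups the mean was 0.054 (-0.238 to 0.279). For the 52 pairs of different numbers it was -0.027 (-0.351 to 0.351). A replicate block was therefore tried among the alternatives. No arrays were left out, and 23 alternatives were tried.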

Additional observations from a re-analysis of the deposited data

Results flagged for a closer look

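The effects of VPA at 64 h and at 4 h differed in limma's test of their difference, at an adjusted p under 0.05, for 6 of the 7 genes. The differences (effect at 64 h minus effect at 4 h, log2) were 2.00 for Plat (adjusted p = 4.30e-06), 2.09 for Serpini1 (adjusted p = 1.93e-06), 3.31 for Serpinb2 (adjusted p = 0.000992), 1.39 for Serpinb6b (adjusted p = 0.0192), 0.68 for Plaur (adjusted p = 0.0229) and -0.80 for Serpinf1 (adjusted p = 0.0153). Those of Plaur and Serpinf1 were under 2-fold. No group had 4 or more arrays, so no search for outlying arrays within a group was made.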

How the results depend on the processing

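Of the 19 called changes of the 7 genes, 14 stayed called under all 23 alternatives (9 settings and 14 single arrays left out). The 3 rises with VPA at 64 h and the fall of Serpinb6b at 4 h were among them. Genes called in Ctrl16h against Ctrl4h numbered 1 in place of 2 with a trended, robust eBayes or with all probe sets tested, since Serpinb2 missed the limit, and 4 with centring on Gapdh. For Ctrl64h against Ctrl16h they were 2 in place of 1 with centring on housekeeping genes, on Gapdh or with quantile normalisation again, Plaur being added. For Ctrl64h against Ctrl4h they were 4 in place of 2 with either centring, and for VPA64h against VPA4h 4 in place of 2 on Gapdh (Plau and Plaur added), 3 with housekeeping genes (Plau and Plaur added, Plat lost) and 3 with quantile normalisation again (Plaur added). For VPA64h against Ctrl4h they were 5 in place of 4 under each of these 3 settings, Plau being added, and on Gapdh Serpinf1 added and Plat lost. Leaving out single arrays gave 1 to 2 for Ctrl16h against Ctrl4h and 1 to 2 for Ctrl64h against Ctrl16h. It also added Plaur or Serpinb6b in VPA64h against VPA4h, and added Plau or lost Serpinb6b in VPA64h against Ctrl4h. In the difference of effects it lost Serpinb6b. Direction was followed for the 49 changes that were called or of at least 0.2, and smaller changes were left out. Among these 49 it turned only for changes not called. They were Serpini1 in Ctrl64h against Ctrl4h (-0.26 with housekeeping genes, -0.31 with Gapdh), Serpinf1 there (-0.043 with Gapdh) and Serpinb2 in VPA64h against VPA4h (-0.022 with housekeeping genes). Plat lost its call in VPA64h against VPA4h with housekeeping genes (0.93) and against Ctrl4h with Gapdh (0.88), and Serpinb6b in the difference of effects with trended, robust eBayes (adjusted p = 0.0745) and all probe sets (adjusted p = 0.0628). The cause was not tested.

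After centring, the median change of all tested probe sets in Ctrl64h against Ctrl4h was -0.59 (housekeeping genes) and -0.65 (Gapdh), beside -0.09 as deposited. In VPA64h against Ctrl64h it was -0.02 and -0.12, beside 0.00 as deposited. The references moved in culture as well. Of the 12 housekeeping genes measured, 2 were called higher and 1 lower in Ctrl64h against Ctrl4h as deposited, with 10.4% of all tested probe sets called. At an adjusted p under 0.05, 7 were higher and 2 lower (median 0.27). Gapdh was read from the row of highest mean among 25 probe sets with Gapdh among their symbols. Over all tested probe sets, calls in Ctrl64h against Ctrl4h numbered 2431 (1564 of them higher), against 3807 (576 higher) with housekeeping genes and 4452 (525 higher) with Gapdh. The higher calls with housekeeping genes and with Gapdh, beside those as deposited, were 527 of 1888 and 814 of 1510 beside 1058 of 1544 in Ctrl64h against Ctrl16h, 418 of 2577 and 548 of 1945 beside 1231 of 1768 in VPA64h against VPA4h, and 572 of 3902 and 427 of 6621 beside 1530 of 2216 in VPA64h against Ctrl4h. In Ctrl16h against Ctrl4h they were 92 of 500 and 39 of 881 beside 165 of 448. In VPA4h against Ctrl4h they were 157 of 329 and 45 of 564 beside 203 of 333. With Gapdh they were 163 of 523 beside 234 of 502 in VPA64h against Ctrl64h, and 506 of 726 beside 209 of 606 in the difference of effects. With the replicate block the called members stayed the same in all 8 comparisons, 3 of them for VPA64h against Ctrl64h. The number of calls over all tested probe sets changed slightly in some comparisons, such as Ctrl64h against Ctrl16h (1611 beside 1544). In others it was unchanged, such as Ctrl64h against Ctrl4h (2431). The mean over all probe sets of a gene gave no other value, since each member had 1.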

Other observations

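Genes beside the members on the chromosome, by RefSeq order, were read for their levels only. Pdcd10, next to Serpini1, averaged 7.65 in VPA64h and 7.54 in Ctrl64h. Cadm4, next to Plaur, averaged 7.25 in VPA64h and 6.01 in Ctrl64h, while Plaur overlapped between these groups.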
